A study of Mus musculus with 8 samples.

Results

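The RNA of 8 genes was followed in mouse myotubes, the multinucleated muscle cells that form in culture: Dmd (dystrophin), Utrn (utrophin), Dag1 (dystroglycan), Sgca, Sgcb and Sgcd (alpha-, beta- and delta-sarcoglycan), Sntb1 (beta-1-syntrophin) and Cav3 (caveolin 3). They were chosen by name as components or partners of the dystrophin complex at the muscle membrane, with earlier results of these data known. All 8 were found by Ensembl identifier among the 35275 genes of the table. C57BL6/J mice were the source of the primary myogenic progenitor cells (MPCs), which were differentiated into myotubes in high-glucose DMEM with horse serum. Treated myotubes were given extracellular vesicles (EVs, membrane-bound particles shed by cells) from MPCs, and control myotubes a vesicle preparation from growth medium. RNA was sequenced after 12 h and after 24 h, giving 4 groups of 2 libraries: control 12 h, MPC EV 12 h, control 24 h and MPC EV 24 h. The study asked what MPC EVs do to gene expression in myotubes. As every library comes from myotubes given one preparation or the other, a higher value with MPC EVs and a lower value with the control vesicles cannot be told apart. Whether both libraries of a group stem from separate cultures or mice is not in the labels, and p-values therefore reflect only how far these libraries differ, possibly for technical reasons.

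Dystrophin is a long rod-shaped protein that joins cortical actin to a group of membrane proteins, and loss of it causes Duchenne muscular dystrophy. Dystroglycan is the membrane receptor at the centre of that group: its outer subunit binds laminin through a sugar chain and its inner subunit binds dystrophin. Sarcoglycans form a membrane subcomplex that steadies dystroglycan, and loss of single sarcoglycans causes limb-girdle muscular dystrophies. Syntrophins are adaptors that bind dystrophin and hold signalling proteins and channels near the membrane. Utrophin is the close relative of dystrophin, abundant in young muscle fibres and at the neuromuscular junction, and caveolin 3 is the muscle-specific coat protein of caveolae, which can bind dystroglycan at the site that dystrophin uses.

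Promoter sequence was available for 7 of the 8 genes in a RefSeq table (build GRCm38.p6), with no entry for Sntb1. The 250 bases before the annotated start are shown for Cav3, which rose with MPC EVs at both times, for Sgca, which did not pass the test for MPC EVs at either time, and for the most upstream start of Dmd, whose control values scattered most. Capitals mark matches to the motifs searched, and all are written 5′ to 3′ on the gene's strand, from chr6:112459255-112459504 (plus strand) for Cav3, chr11:94976328-94976577 (minus strand) for Sgca and chrX:82948620-82948869 (plus strand) for Dmd.
Cav3: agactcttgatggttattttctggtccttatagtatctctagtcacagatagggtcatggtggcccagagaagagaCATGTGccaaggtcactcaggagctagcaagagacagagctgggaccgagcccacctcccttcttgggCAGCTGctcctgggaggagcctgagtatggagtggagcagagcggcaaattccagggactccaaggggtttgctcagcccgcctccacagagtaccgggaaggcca
Sgca: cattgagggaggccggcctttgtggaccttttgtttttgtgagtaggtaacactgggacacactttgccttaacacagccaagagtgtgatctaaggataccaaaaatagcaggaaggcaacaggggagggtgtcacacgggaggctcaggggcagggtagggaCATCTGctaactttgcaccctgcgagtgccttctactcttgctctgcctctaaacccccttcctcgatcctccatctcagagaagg
Dmd: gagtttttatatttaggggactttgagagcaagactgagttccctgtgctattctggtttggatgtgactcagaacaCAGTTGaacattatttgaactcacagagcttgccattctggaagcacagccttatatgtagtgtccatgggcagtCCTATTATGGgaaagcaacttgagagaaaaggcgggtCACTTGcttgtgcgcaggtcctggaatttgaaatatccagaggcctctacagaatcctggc
The motifs were CANNTG (the E-box, bound by myogenic factors and many others), its special case CAGCTG, the MCAT element with the letters CATTCC, the MEF2 site and the CArG box, searched on both strands. The Cav3 window held CATGTG starting 174 bases before the gene and CAGCTG 106 bases before it. In Sgca the only match was CATCTG, 86 bases upstream. Dmd had CAGTTG at 173 bases, CACTTG at 61 bases and the CArG box CCTATTATGG at 98 bases upstream. Of 32851 promoters of the same length, 66.2% held CANNTG, 13.0% CAGCTG, 12.6% the MCAT letters, 1.47% a CArG box and 0.508% a MEF2 site, and E-boxes were found in 6 of these 7 genes. No window of the 7 genes held a MEF2 site, which says only that those letters are not in this window.

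Values are FPKM, fragments scaled by gene length and library total, and the depth of the libraries was estimated at 16.3 to 20.1 M (mega) fragments. The length scaling means that a single value can rest on very different numbers of fragments: approximately 72 to 266 for Sgcd, 175 to 5491 for Dmd and 418 to 1722 for Cav3, against 9072 to 15598 for Dag1. The library control 12 h replicate 2 stood apart: in it, transcripts of at least 5077 bases with at most 44.4% GC had a median deviation of -1.08 on the log2 scale from the mean of the 8 libraries, while the other 7 lay between -0.12 and 0.28. Its correlation with its partner across tested genes was 0.947, against 0.992 to 0.996 within the other groups. All 8 myotube markers were at 10 FPKM or more in every library, with 1851 to 3290 FPKM for Myog, a myogenic transcription factor. All 5 endothelial and all 4 Schwann cell markers, and 4 of 5 macrophage markers, were under 1 FPKM in every library. Adgre1 and Sox10, which define macrophages and Schwann cells, were each at 0 in 5 libraries, and Cldn5, an endothelial junction gene, in 4. Of 6 fibroblast markers 3 stayed under 1 FPKM, Lum being at 0 in 5 libraries, and the 6 together summed to 26.0 to 27.3 FPKM in control and 19.1 to 22.2 in MPC EV at 12 h, and to 31.4 to 33.2 against 25.7 to 26.2 at 24 h. The 8 myotube markers summed to 16587 to 19453 FPKM against 17735 to 19092 at 12 h, and to 12576 to 12814 against 15423 to 17069 at 24 h. Acta1, Mylpf and Myog made up most of these sums. Actn2 was higher with MPC EVs, at a mean of 40.5 against 127.0 FPKM at 12 h (adjusted p = 0.00245, limma) and 11.0 against 74.8 FPKM at 24 h (adjusted p = 0.00196). Ckm passed only at 24 h, at 38.7 against 78.1 FPKM (adjusted p = 0.0268, limma). The other myotube markers did not pass at either time in the main fit. After a correction of each library for GC content and transcript length, 6 of the 8 were higher at 12 h and 5 at 24 h, with none lower. The whole-table counts under that correction are given further below for 12 h only. The 5 smooth muscle and pericyte markers summed to 2.45 to 3.04 against 1.68 to 2.17 FPKM at 12 h and 4.60 to 4.63 against 2.65 to 2.77 at 24 h, lower with MPC EVs at both times. The 6 progenitor markers summed to 136 to 141 against 151 to 157 FPKM at 12 h and 105 to 107 against 119 to 120 at 24 h. Most of that sum was Cdh15, at a mean of 94.2 against 115.5 FPKM at 12 h, while Vcam1 was lower at 12 h (24.1 against 16.2 FPKM, adjusted p = 0.0121, limma) and Myf5 stood at 14.9 against 8.64 FPKM at 24 h (adjusted p = 0.0740). In bulk RNA, fewer cells of a type and less RNA per cell cannot be told apart, and the part of these shifts in the results was not tested.

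After 12 h, Sntb1 was higher with MPC EVs by 1.14 ± 0.06 (difference of log2(FPKM + 0.5) ± SE), Utrn by 0.83 ± 0.15 and Cav3 by 0.67 ± 0.12, so that 3 of the 7 genes other than Sgcd were higher and none was lower by limma at an adjusted p under 0.05. Sgcd also passed (0.98 ± 0.19), but it reached the minimum mean of 1 FPKM for testing only through the MPC EV libraries and is left out of these counts and medians. Of 10981 genes tested, 4.36% passed as higher and 14.3% as lower. The median difference of the 7 genes was 0.67, beside -0.12 over all tested genes, which moved to 0.01 when the libraries were scaled by median ratios. Both MPC EV libraries lay above both controls for 5 of the 7 genes and for 17.1% of all tested genes, and both below for 0 and 45.0%. Without control 12 h replicate 2, Sntb1, Utrn and Cav3 passed again and Dag1 joined them, as Sgcd did outside the count, with 5.75% of all genes higher and 10.4% lower. Calls were lost when 1 MPC EV 12 h library was left out, with adjusted p between 0.0749 and 0.123 for Utrn, Sgcd and Cav3 without replicate 1 or replicate 2. With the 4 libraries of 12 h alone no member passed, the smallest adjusted p being 0.0611 for Sntb1.

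After 24 h, 2 of the same 7 genes were higher with MPC EVs, Cav3 by 1.13 ± 0.12 and Sntb1 by 0.47 ± 0.06, and none was lower. All genes gave 2.61% higher and 0.956% lower, and the median difference was 0.15 for the 7 genes and -0.03 over all tested genes. Both MPC EV libraries lay above both controls for 4 of the 7 genes (23.7% of all genes) and below for 1, Sgcb (30.2%). Without control 12 h replicate 2, which enters only through the shared estimate of spread, the same 2 genes passed, with 5.32% of all genes higher and 2.94% lower. The Sntb1 call ended when any single 24 h library was left out (adjusted p 0.125 to 0.151). The Cav3 call ended without control 24 h replicate 1 (0.0508) or 2 (0.0830) or MPC EV 24 h replicate 1 (0.0841).

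**Figure D1:**
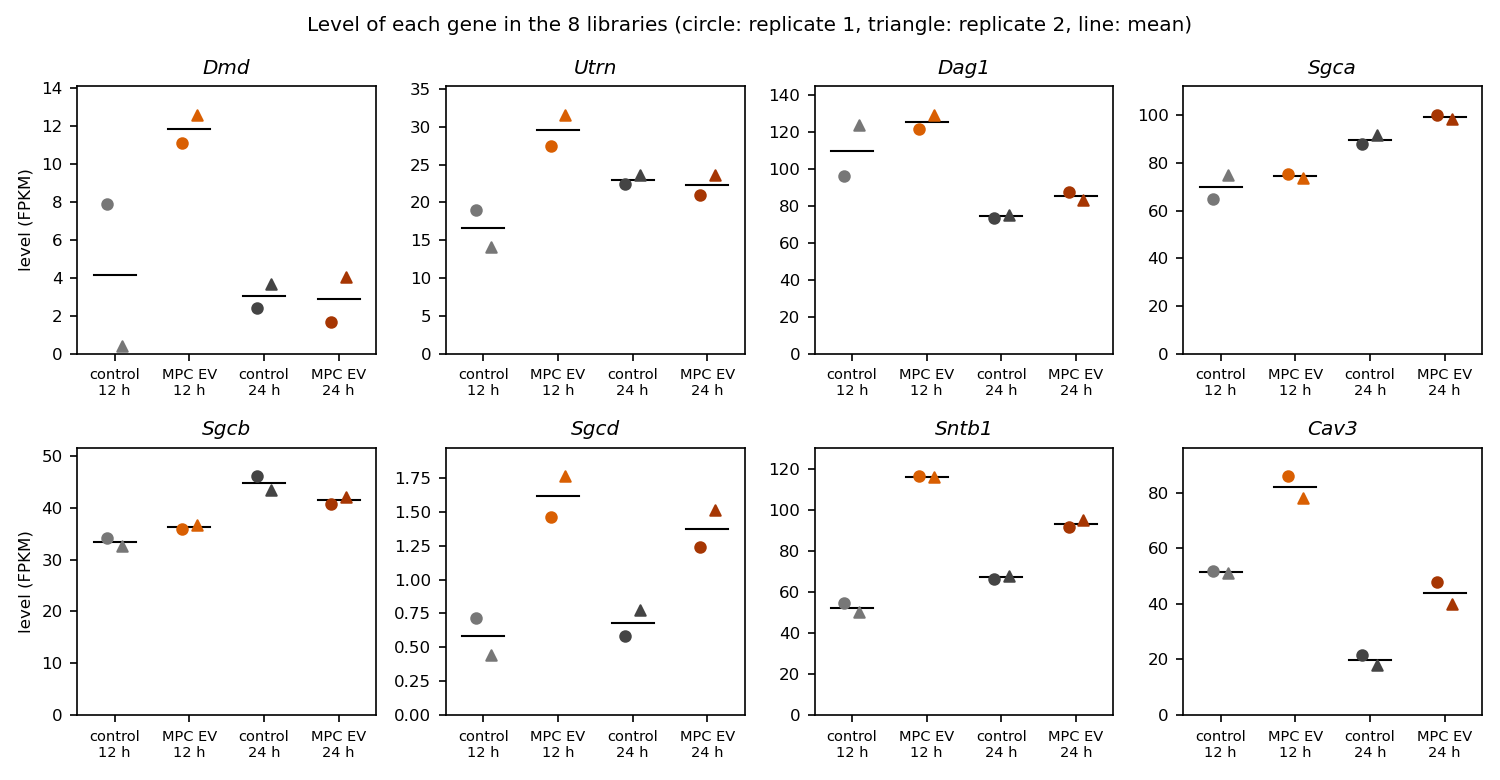
Level of each of the 8 genes in FPKM in each library, with 1 panel per gene, an axis of its own from 0 in each, a circle for replicate 1, a triangle for replicate 2 and a line at the group mean, for control and MPC EV at 12 h and 24 h. For Sntb1 and Cav3 both MPC EV points sit above both controls at each time, for example at 116.5 and 115.9 FPKM above 54.5 and 50.2 FPKM for Sntb1 at 12 h.

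Dystrophin RNA measured 7.87 and 0.372 FPKM in the control libraries at 12 h and 11.1 and 12.6 FPKM with MPC EVs. At 24 h it measured 2.40 and 3.68 FPKM in control against 1.66 and 4.05 with MPC EVs. Both MPC EV libraries of 12 h were the highest of all 8, the 24 h groups overlapped, and the control libraries of 12 h differed from each other by 21.2-fold. The fitted difference at 12 h was 2.19 ± 0.98 (adjusted p = 0.153, limma), 0.56 (adjusted p = 0.360) without control 12 h replicate 2 and 3.82 (adjusted p = 0.00021), a pass, without replicate 1, a setting in which 19.9% of all genes were higher and 31.8% lower. The change with time in control likewise ran from -1.27 (adjusted p = 0.0557) without replicate 2 to 1.996 (adjusted p = 0.00482) without replicate 1. Dmd has the longest transcript of the 8, 14910 bases at 41.5% GC, on chromosome X from 82948870 to 85206141 (GRCm38, plus strand), and so belongs to the class of long transcripts that was low in that library. Across the 8 libraries its order followed the order of the long-transcript deviation, except for the neighbouring replicate 2 libraries of 24 h. Whether that deviation accounts for the Dmd values was not tested. The gene has 14 annotated transcripts, full-length and short, which a value per gene does not separate.

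Utrophin RNA differed at 12 h with or without that library. The MPC EV 12 h libraries had the highest long-transcript deviations of all libraries, 0.248 and 0.283. Whether that deviation accounts for the Utrn values was not tested. Control values were 19.0 and 14.1 FPKM and MPC EV values 27.5 and 31.6 FPKM at 12 h, followed by 22.4 and 23.6 FPKM in control against 21.0 and 23.6 with MPC EVs at 24 h. The 12 h groups were fully apart, with means of 16.5 ± 3.51 and 29.6 ± 2.89 (SD, n = 2), whereas the 24 h groups overlapped. Utrn was higher at 12 h by 0.83 ± 0.15 (adjusted p = 0.0192, limma). After correction of each library for GC content and transcript length it was higher by 0.47 (adjusted p = 0.0118). Without control 12 h replicate 2, which leaves a single control library at 12 h, the difference was 0.62. At 24 h the difference was -0.05 ± 0.15 (adjusted p = 0.961). Utrn lies on chromosome 10 from 12382188 to 12869365 (minus strand), and its longest coding transcript has 12382 bases at 47.9% GC. Its call at 12 h also ended without control 24 h replicate 1 (adjusted p = 0.0528) or 2 (0.0525), which enter through the spread.

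**Figure D2:**
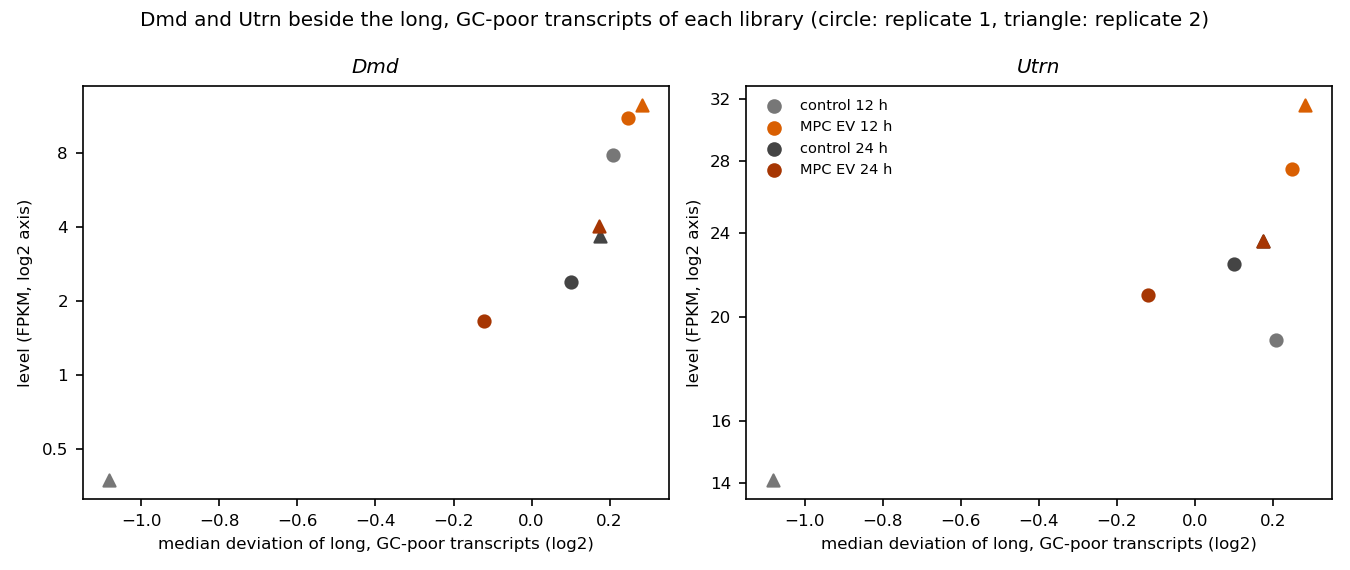
Dmd and Utrn levels (FPKM, log scale) against the median log2 deviation of 679 long, GC-poor transcripts, 1 point per library. Control 12 h replicate 2 sits alone at the left at -1.08 with the lowest value of both genes, 0.372 FPKM for Dmd and 14.1 FPKM for Utrn, and the MPC EV 12 h libraries sit at the upper right.

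Dystroglycan, the laminin receptor, was among the most abundant of the 8 transcripts. Dag1 measured 96.1 and 123.8 FPKM in control against 121.8 and 129.5 with MPC EVs at 12 h. The values at 24 h were 73.5 and 75.1 FPKM in control against 87.5 and 83.1 with MPC EVs. The groups overlapped at 12 h and were apart at 24 h, with MPC EV above control, but the difference did not pass the test at either time (0.20 ± 0.12 at both, adjusted p = 0.240 and 0.577, limma). Without control 12 h replicate 2, where Dag1 was higher than in its partner library, the 12 h difference was 0.38, measured from a single control library. What passed was the fall from 12 h to 24 h, by 0.55 ± 0.12 on the log2 scale in control (adjusted p = 0.0241) and by 0.56 ± 0.12 with MPC EVs (adjusted p = 0.0247). The gene lies on chromosome 9 from 108204634 to 108263958 (minus strand).

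The 3 sarcoglycans differed in level and in behaviour. Alpha-sarcoglycan, found only in striated muscle, measured 64.9 and 75.1 FPKM in control against 75.5 and 73.7 with MPC EVs at 12 h, and 87.8 and 91.5 FPKM in control against 100.2 and 98.4 with MPC EVs at 24 h. Both groups of 24 h lay above all libraries of 12 h, and the treatments overlapped at 12 h and were apart at 24 h. The differences with MPC EVs, 0.09 ± 0.08 at 12 h and 0.15 ± 0.08 at 24 h, did not pass (adjusted p = 0.387 and 0.508, limma), while the rise with time did, 0.36 ± 0.08 in control (adjusted p = 0.0262) and 0.41 ± 0.08 with MPC EVs (adjusted p = 0.0180). After the GC and length correction Sgca also passed at 12 h (0.32, adjusted p = 0.0335). The gene is on chromosome 11 from 94962791 to 94976327 (minus strand).

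Beta-sarcoglycan, expressed in many tissues, differed by at most 1.06-fold between the libraries of a group. Sgcb measured 34.2 and 32.7 FPKM in control against 35.9 and 36.8 with MPC EVs at 12 h, and 46.1 and 43.5 FPKM in control against 40.8 and 42.1 with MPC EVs at 24 h. MPC EV libraries were thus above control at 12 h and below it at 24 h, with no overlap at either time, but neither difference passed (0.12 ± 0.06 and -0.11 ± 0.06, adjusted p = 0.191 and 0.521, limma). With the GC and length correction the 12 h difference was -0.13 (adjusted p = 0.494), and with median-ratio scaling it was 0.25 (adjusted p = 0.0427). Time raised it in control by 0.42 ± 0.06 (adjusted p = 0.00663), a call that ended with the GC and length correction (0.23, adjusted p = 0.240). Sgcb lies on chromosome 5 from 73632749 to 73647790 (minus strand).

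Delta-sarcoglycan was the lowest of the 8. Sgcd measured 0.719 and 0.441 FPKM in control against 1.47 and 1.76 with MPC EVs at 12 h, and 0.581 and 0.779 FPKM in control against 1.24 and 1.51 with MPC EVs at 24 h. All 4 MPC EV libraries lay above all 4 controls. The difference was 0.98 ± 0.19 at 12 h (adjusted p = 0.0242, limma) and 0.67 ± 0.19 at 24 h, which did not pass (adjusted p = 0.159), and the pseudocount of 0.5 makes both smaller than the ratios of the means, 2.78 and 2.02. Since Sgcd reached the minimum mean only through the MPC EV libraries, its passing the filter and its difference are not separate facts. The 12 h call also ended without any single 24 h library (adjusted p 0.0530 to 0.0558). The gene spans chromosome 11 from 46896253 to 47988969 (minus strand).

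Sntb1, a syntrophin adaptor bound to dystrophin and utrophin, had the largest difference that passed at 12 h among the 8. It measured 54.5 and 50.2 FPKM in control against 116.5 and 115.9 with MPC EVs at 12 h, and 66.6 and 67.6 FPKM in control against 91.6 and 95.3 with MPC EVs at 24 h. All 4 MPC EV libraries lay above all 4 controls, 2.22-fold by means at 12 h and 1.39-fold at 24 h. The adjusted p was 0.00177 at 12 h and 0.0144 at 24 h (limma), and at 12 h the call held without each single library. With the GC and length correction the 12 h difference was 0.89 (adjusted p = 0.00346). From 12 h to 24 h Sntb1 rose in control by 0.36 ± 0.06 (adjusted p = 0.0112) and fell with MPC EVs by 0.31 ± 0.06 (adjusted p = 0.0185). Both of these time calls ended with the GC and length correction (0.17, adjusted p = 0.237, and -0.19, adjusted p = 0.193). Sntb1 lies on chromosome 15 from 55636388 to 55906949 (minus strand).

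Caveolin 3 was higher with MPC EVs at both times and lower at 24 h than at 12 h under both treatments. Cav3 measured 51.9 and 51.1 FPKM in control against 86.0 and 78.1 with MPC EVs at 12 h, and 21.7 and 17.9 FPKM in control against 48.0 and 40.1 with MPC EVs at 24 h. The 4 groups were apart from each other, with MPC EV 24 h just under control 12 h. The ratio of the means was 1.59 at 12 h and 2.22 at 24 h (adjusted p = 0.0198 and 0.00906, limma). The fall with time was 1.36 ± 0.12 on the log2 scale in control (adjusted p = 0.00135) and 0.89 ± 0.12 with MPC EVs (adjusted p = 0.00652). The control call held without each single library, and the call with MPC EVs ended without MPC EV 12 h replicate 1 (adjusted p = 0.0556). Cav3 has 1 annotated transcript, of 1157 bases at 56.6% GC, on chromosome 6 from 112459505 to 112472872 (plus strand). Control 12 h replicate 2, low in long transcripts, differed from its partner by 1.01-fold for this gene. After the GC and length correction the 12 h difference was 0.90 (adjusted p = 0.00997).

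**Figure D3:**
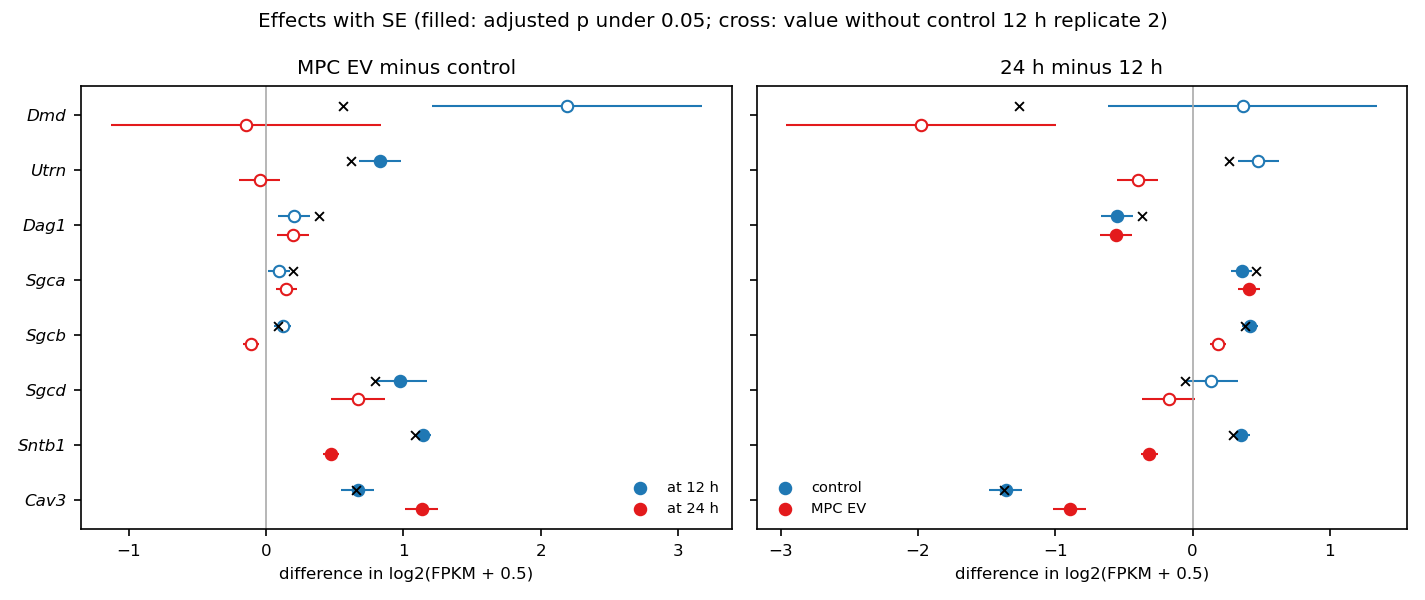
Log2 difference of log2(FPKM + 0.5) for each of the 8 genes, on the left MPC EV minus control at 12 h and at 24 h, and on the right 24 h minus 12 h in control and in MPC EV, with bars of 1 SE from the limma fit. Filled points passed an adjusted p under 0.05, and crosses give the blue values without control 12 h replicate 2. On the left the filled points are Sntb1, Sgcd, Utrn and Cav3 at 12 h, from 0.67 to 1.14, and Cav3 (1.13) and Sntb1 (0.47) at 24 h, while Dmd at 12 h has the widest bar, 2.19 ± 0.98.

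From 12 h to 24 h in control myotubes, Sgca, Sgcb and Sntb1 rose and Dag1 and Cav3 fell, 3 higher and 2 lower of the 7, beside 7.54% and 10.3% of all genes. Both 24 h libraries lay above both 12 h libraries for 4 of the 7 (27.8% of all genes) and below for 2 (30.9%). With MPC EVs Sgca rose and Dag1, Sntb1 and Cav3 fell, 1 higher and 3 lower, beside 12.9% and 5.40% of all genes, with both libraries above for 2 (47.1%) and below for 5 (23.6%). Without control 12 h replicate 2 the control calls were the same 5, with 12.2% of all genes higher and 11.1% lower. In the MPC EV arm 7 genes then passed, 2 higher and 5 lower (24.8% and 12.8% of all genes), adding Dmd (-1.98, adjusted p = 0.00335), Utrn (-0.40, adjusted p = 0.0105) and Sgcb (0.19, adjusted p = 0.0315). With control 12 h replicate 1 left out, 7 genes passed in each arm, Dmd and Utrn (0.69, adjusted p = 0.00134) joining in control, beside 22.7% of all genes higher and 18.4% lower in control and 25.2% and 12.8% with MPC EVs. Dag1 lost its call in both arms, and Sgca in the control arm, without any single library other than a control 12 h one, with 1 library left out at a time (adjusted p 0.0528 to 0.174). Sgca with MPC EVs lost its call without any single MPC EV library (0.0851 to 0.115). Sntb1 lost its call in control without either control 24 h library (0.0794 and 0.102), and with MPC EVs without any single library other than a control 12 h one (0.0549 to 0.129). Sgcb lost its call in control without control 24 h replicate 1 (0.0662).

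The difference between the EV effects at 24 h and 12 h was tested for all 10981 genes, and none passed by limma, higher or lower (0%), with 2014 at an unadjusted p under 0.05 and a smallest adjusted p of 0.0756. Among the 8 genes, 4 had an unadjusted p under 0.05. Those were Sntb1 (-0.67 ± 0.08, adjusted p = 0.0985) and Utrn (-0.88 ± 0.21, adjusted p = 0.146), with smaller differences at 24 h, Cav3 (0.47 ± 0.17, adjusted p = 0.232), with a larger one, and Sgcb (-0.23 ± 0.09, adjusted p = 0.232). The median over the 7 was -0.23, beside 0.11 over all genes. With control 12 h replicate 2 left out, 0.0273% of all genes and none of the 8 passed, with Sntb1 nearest at -0.61 (adjusted p = 0.0543). Without its partner, control 12 h replicate 1, Dmd (-3.97), Utrn (-1.09) and Sntb1 (-0.73) passed, but so did 17.8% of all genes as higher and 15.6% as lower, in a fit where the library low in long transcripts stands alone for its group.

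Levels per length can be ordered within each group. In control at 12 h Dag1 was highest at 110.0 ± 19.6 FPKM (SD, n = 2), followed by Sgca at 70.0 ± 7.21, then Sntb1 at 52.4 ± 3.07 and Cav3 at 51.5 ± 0.529, whose ranges overlapped, then Sgcb, Utrn, and Dmd and Sgcd, whose ranges also overlapped. With MPC EVs at 12 h the order was Dag1, Sntb1, Cav3, Sgca, Sgcb, Utrn, Dmd and Sgcd, with no overlap between neighbours. At 24 h Sgca came first in both groups, at 89.6 ± 2.65 FPKM in control against 99.3 ± 1.33 with MPC EVs. In control at 24 h Cav3 stood below Utrn at 19.8 ± 2.66 FPKM, while with MPC EVs it stood above Utrn at 44.0 ± 5.61 FPKM, with a range that overlapped Sgcb. Dmd and Sgcd were the lowest pair in every group.

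For each gene, the genes with the most similar profile were sought among those with a mean of at least 2 FPKM, by Pearson's r of log2(FPKM + 0.5) over the 8 libraries. This is a description over 8 points that share treatment, time and library. The closest to Dmd was Xirp2 (0.999), an actin-binding protein of striated muscle, whose longest coding transcript is also long at 11979 bases, with 42.2% GC. Utrn was closest to Ahnak (0.988), a giant membrane-associated protein with a transcript of 18100 bases, and Dag1 to Tns1 (0.997), a focal adhesion protein. Sgca was closest to Cln8 (0.994), Sgcb to Klf6 (0.990), Sgcd to Col25a1 (0.995), Sntb1 to Wnk1 (0.978) and Cav3 to Exoc3l (0.995). The 3 closest to Cav3 also held Apobec2 (0.992), an enzyme-family protein found in muscle.

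Other parts of the complex were 12 further genes, of which 8 passed the minimum mean. None of these further genes passed the test with MPC EVs at 12 h or 24 h, with medians of 0.02 and 0.05. Sspn, sarcospan, measured 16.6 and 20.4 FPKM in control against 22.3 and 25.1 with MPC EVs at 12 h, a difference of 0.35 ± 0.11 (adjusted p = 0.0718, limma), and its groups were apart. Without control 12 h replicate 2, which leaves a single control library at 12 h, the Sspn difference at 12 h was 0.50. At 24 h the differences of Sspn and of Dtnb, a dystrobrevin, were 0.33 and 0.57. That setting gave 2 higher at 12 h and 3 at 24 h, beside 5.75% and 5.32% of all tested genes. Median-ratio scaling gave 3 higher at 12 h, with its count over all genes given further below, and none at 24 h. The genes under the minimum were Sgcz, Sntg1, Sntg2 and Nos1, the neuronal nitric oxide synthase that syntrophin anchors in mature fibres. Their highest value was 0.124 FPKM, for Nos1, and Sntg1 and Sntg2 were listed at 0 in every library.

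Beside each count of the lists below in the main fit stand the shares of all tested genes, 4.36% higher and 14.3% lower at 12 h and 2.61% and 0.956% at 24 h. Counts under other settings are not to be set beside these shares. The whole-table counts at 12 h under those settings are given further below. Among 9 genes of caveolae, 2 were higher and none lower with MPC EVs at each time, with medians of 0.30 at 12 h and 0.27 at 24 h. Cavin4, the muscle-specific cavin coat protein, measured 218.8 and 232.1 FPKM in control against 326.9 and 301.1 with MPC EVs at 12 h, and 122.8 and 116.9 FPKM against 164.7 and 160.7 FPKM at 24 h. Like Cav3 it was apart between treatments at both times, by 0.48 ± 0.07 (adjusted p = 0.00948, limma) and 0.44 ± 0.07 (adjusted p = 0.0258). Of 10 membrane repair genes, 5 were higher at 12 h and 3 at 24 h, with none lower. Capn3, the muscle calpain, stood at 8.01 and 8.67 FPKM in control against 18.6 and 16.1 with MPC EVs at 12 h, and at 1.37 and 2.26 against 7.22 and 6.01 FPKM at 24 h (1.01 ± 0.20, adjusted p = 0.0234, and 1.64 ± 0.20, adjusted p = 0.0121). Trim72 and Myof, both of membrane resealing, passed at both times, with 0.52 and 0.54 at 12 h and 0.46 and 0.39 at 24 h. With the GC and length correction the repair genes called at 24 h were 1 in place of 3, and the caveolae genes 1 higher and 1 lower. The share of all tested genes called at 24 h in that setting is not given here, so these counts are no result about the lists. Their medians at 24 h were then 0.13 and 0.28. Median-ratio scaling gave 4 caveolae genes higher at 12 h.

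Of 10 tested genes for laminin-binding integrin and costamere linkers, 4 were higher at 12 h (Itgb1bp2, Itga6, Plec and Tln1; 4.36% of all genes) and 2 at 24 h (2.61%), with none lower. Itgb1bp2 (melusin), a muscle partner of the beta-1 integrin tail, rose by 0.72 ± 0.15 at 12 h (adjusted p = 0.0255, limma) and by 1.72 ± 0.15 at 24 h (adjusted p = 0.00375), from 7.18 and 7.99 FPKM in control to 30.3 and 22.6 FPKM at 24 h. Among 8 tested laminins and other dystroglycan ligands, Lamb2 was higher (0.35) and biglycan, Bgn, lower (-0.64) at 12 h, and Lamb1 was higher (0.76) at 24 h, single genes beside the same shares. The 16 tested genes of dystroglycan glycosylation, which build the laminin-binding sugar, had 3 lower at 12 h, among them Dpm3 (-0.50) and Dpm2 (-0.36), near the 14.3% of all genes that were lower, and none at 24 h. At 12 h 1 was lower with median-ratio scaling and none after the GC and length correction, and among the ligands median-ratio scaling gave 2 higher and none lower.

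**Figure D4:**
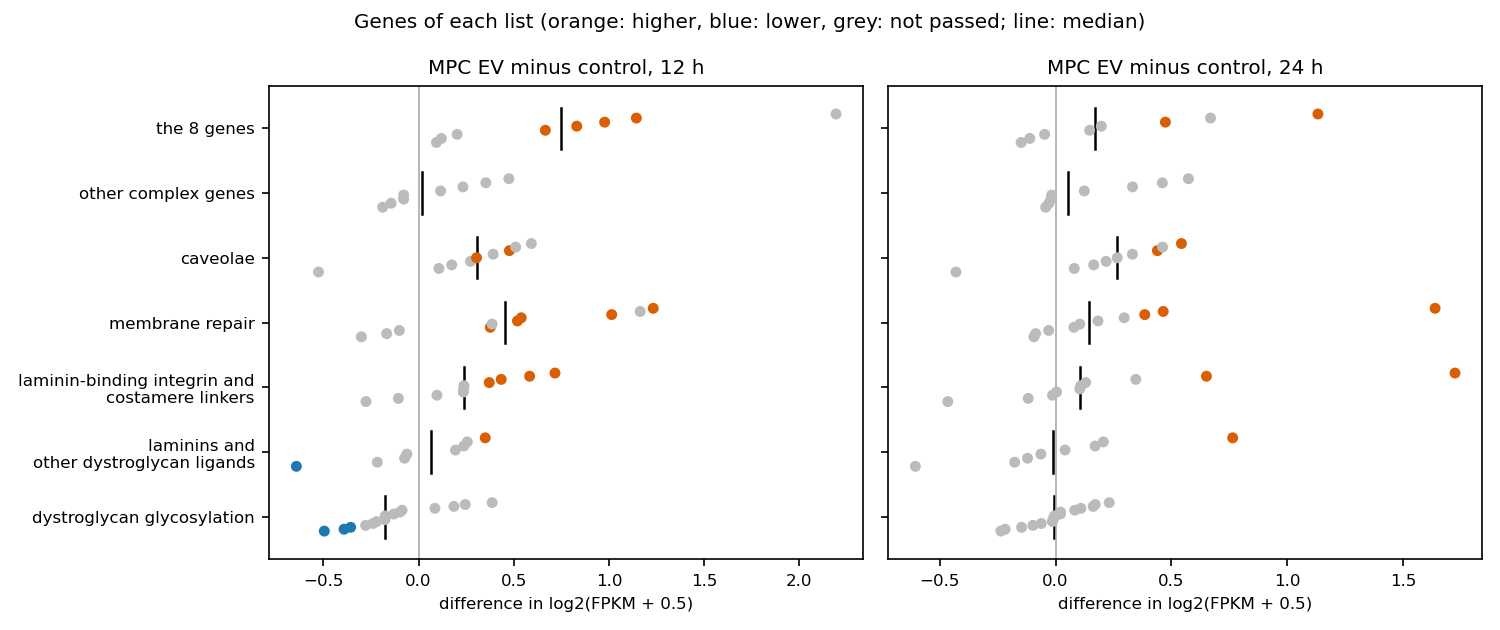
Log2 difference, MPC EV minus control, of each tested gene of 7 lists at 12 h and at 24 h, 1 point per gene, orange where it was higher and blue where it was lower at an adjusted p under 0.05 by limma and grey otherwise, with a line at the list's median. The 8 genes, Sgcd included, have medians of 0.75 at 12 h and 0.17 at 24 h, the membrane repair list 0.45 and 0.14, and the other genes of the complex 0.02 and 0.05.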

How the data were processed

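RNA of mouse myotubes was sequenced as paired ends from libraries that were not strand-specific, per the labels' protocols, and the values are FPKM as deposited by the authors, in 1 column for each of the 8 libraries. HISAT2, DESeq2 (version 2) and mm10 are listed, without their roles, per the submitters' processing notes, and for the counting tool and annotation the sources used here give no name. Without strand, reads of a gene and of an antisense partner cannot be told apart. Ensembl identifiers were matched to GENCODE vM21 (GRCm38), with a symbol for 34490 and none for 785.

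A minimum mean of 1 FPKM across libraries left 10981 of 35275 genes. The values log2(FPKM + 0.5) of all these genes went into limma 3.58.1 under R 4.3.3 (lmFit, eBayes with an intensity trend), two-sided, Benjamini-Hochberg over all tested genes, threshold 0.05. A single fit of the 4 groups had 4 residual degrees of freedom and gave 5 comparisons: MPC EV against control at 12 h and at 24 h, 24 h against 12 h in each treatment, and the difference of the EV effects. A fold change on this scale understates the change of low genes. The depth was estimated from the steps of low FPKM values, since the share of low genes that fell on whole fragments within 0.02 was only 49.4% to 53.3%, and no count test was run. Fragment numbers are approximate, from that depth and annotated exon length.

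The 8 genes, the other lists and the tests were chosen with earlier results of these data known. From each other list, up to 4 genes with the smallest adjusted p for MPC EVs were eligible to be named, and for each of the 8 genes the 3 with the highest correlation. The 4 genes of the complex under the minimum were named after their values were seen. A few of the genes eligible to be named are left out here. In simulated data with 200 of 10981 genes changed, the 12 h comparison recovered 38%, 76% and 88% of genes at a log2 change of 0.5, 1 and 2, with 6 false calls, and the 24 h comparison 28%, 80% and 82%, with 8. Some of the changed genes were set lower and are not in these shares. The simulated noise was independent between genes. It held no deviation shared across a library, such as that of control 12 h replicate 2, so the false calls do not carry over to these data. Alternatives were other pseudocounts, filters and scalings, a flat variance prior, a block for the replicate number, the libraries of 2 groups alone, each library left out, and a correction of each library for GC content and transcript length (values for 99.7% of tested genes). Tables and figures were made with Python 3.11.15, numpy 2.4.6, pandas 2.3.3 and matplotlib 3.10.9.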

Additional observations from a re-analysis of the deposited data

Results flagged for a closer look

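Utrn had both 24 h libraries above both 12 h libraries in control and below them with MPC EVs, although neither change with time passed (0.48, adjusted p = 0.0774, and -0.40, adjusted p = 0.118, limma). The difference of the EV effects was -0.88 on the log2 scale, and its test did not pass (adjusted p = 0.146, limma).

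Sntb1 had both 24 h controls above the 12 h controls and both MPC EV libraries of 24 h below those of 12 h. Its difference of EV effects was -0.67 (adjusted p = 0.0985, limma), which did not pass.

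Sgcb lay above control at 12 h and below it at 24 h in every MPC EV library, with neither difference passing (adjusted p = 0.191 and 0.521, limma). The difference of the EV effects was -0.23 (adjusted p = 0.232, limma) and did not pass.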

How the results depend on the processing

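With 2 libraries a group, the calls for MPC EVs at 12 h and for time in control lean on the shared estimate of spread. In a fit of the 2 groups compared alone, 0 of the 8 genes passed for MPC EVs at 12 h and 1 for time in control. Cav3 and Sntb1 kept their calls at 24 h, as did Dag1, Sgca, Sntb1 and Cav3 for time with MPC EVs. Over the whole table such fits called 11 genes for MPC EVs at 12 h and 480 for time in control, against 2045 and 1959. More genes than in the main fit were called at 24 h (763 against 392) and for time with MPC EVs (3373 against 2013). At 12 h the whole table gave 1284 calls with median-ratio scaling (736 higher, 548 lower), 1253 with quantile normalization (506 and 747) and 1149 with the GC and length correction (469 and 680), against 479 and 1566. Without a filter on low values 225 genes were called at 24 h.

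With the replicate number as a block, 1114 genes were called at 12 h and 183 at 24 h, and the number of the 8 genes called stayed within 1.5 times in all 5 comparisons. Deviations of same-numbered libraries correlated between -0.61 and 0.24, so the numbers were not treated as pairs.

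Leaving out 1 library at a time, the count among the 8 genes, Sgcd included, ranged from 1 to 5 for MPC EVs at 12 h, 0 to 2 at 24 h, 1 to 7 for time in control, 0 to 7 for time with MPC EVs and 0 to 3 for the difference of the EV effects. Over all genes the ranges were 212 to 5671, 27 to 958, 525 to 4519, 446 to 4176 and 0 to 3668. The highest of each of the latter came without control 12 h replicate 1.

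Only differences that had not passed changed sign. Leaving out 1 library, these were Sgca at 12 h (-0.011 to 0.20), Dmd (-0.68 to 0.39) and Utrn (-0.13 to 0.034) at 24 h, Dmd (-1.27 to 1.996) and Sgcd (-0.052 to 0.32) for time in control, and Dag1 (-0.19 to 0.18) and Sgca (-0.051 to 0.16) for the difference of the effects. The GC and length correction turned Sgcb at 12 h (-0.13), Dmd (-0.18) and Sgcd (-0.10) for time in control, and Sgca (-0.22), Sgcb (0.071) and Sgcd (0.035) for the difference of the effects. Quantile normalization turned Sgcd for time in control (-0.11) and Sgca for the difference (-0.012), as median-ratio scaling did for the latter (-0.061). The cause was not tested. Sgcd has the fewest fragments and was not tested at a minimum mean of 5 FPKM.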

Other observations

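Some related lists held genes that fell with time, among them caveolae and membrane repair. The laminins and other dystroglycan ligands had medians above 0, at 0.18 in control and 0.16 with MPC EVs. Over all tested genes the medians were 0.01 and 0.10. Among 9 genes of caveolae, 3 fell from 12 h to 24 h in control and 4 with MPC EVs, beside 10.3% and 5.40% of all tested genes. None of the 9 rose, but 1 did in each treatment with the GC and length correction. The shares of all tested genes that changed with time in that setting are not given here. Cavin4 fell by 0.91 ± 0.07 on the log2 scale in control (adjusted p = 0.000698, limma) and by 0.95 ± 0.07 with MPC EVs (adjusted p = 0.00106). Of 10 membrane repair genes, 4 fell in control and 3 with MPC EVs, and none rose, while 1 rose in control with the GC and length correction. Capn3, the muscle calpain, fell by 1.96 ± 0.20 in control (adjusted p = 0.00198) and by 1.33 ± 0.20 with MPC EVs (adjusted p = 0.00870). Itgb1bp2, the integrin partner melusin, fell by 2.31 ± 0.15 (adjusted p = 0.000504) and by 1.30 ± 0.15 (adjusted p = 0.00340). Among the 8 myotube markers 6 fell with time in control and 3 with MPC EVs, and the part of that shift in these values was not tested.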
